A study of Mus musculus with 50 samples.

Results

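Microglia from newborn mice in which Hdac1 and Hdac2 had been deleted from embryonic day 13 (E13) were compared with microglia of newborn mice without the recombinase. These are the 7 libraries that the count table labels as the inducible model at P0, the day of birth, out of 50 libraries in all: 4 knockouts (animals 48, 49, 53 and 57) and 3 controls (animals 54, 55 and 56). In knockouts, loxP sites flanked part of Hdac1 and of Hdac2 on both chromosomes, together with Cx3cr1-CreERT2, a recombinase that enters the nucleus in the presence of tamoxifen. Controls carried the same loxP alleles and no Cre. The dams of both groups had received 3 mg tamoxifen at E13, so the controls were exposed to the drug as well. No control carried Cre, so the loss of the deacetylases and the presence of CreERT2 cannot be told apart. The Cx3cr1 promoter that drives the recombinase is also active in other mononuclear phagocytes.

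The series as a whole profiled sorted brain microglia of this inducible model at E16, P0, 2 weeks and 6 weeks. It also holds a constitutive model (Cx3cr1-Cre, no tamoxifen) at P0, 2 weeks and 6 weeks. Total RNA was amplified as cDNA and sequenced, and reads were counted per gene. Levels are given in CPM, the count of a gene scaled to the total of its library, which are not scaled by gene length.

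HDAC1 and HDAC2 are paralogous class I histone deacetylases. They form the catalytic core of the SIN3, NuRD, CoREST and MiDAC complexes, which remove acetyl groups from histone tails and restrain transcription. Microglia, the resident macrophages of the brain, arise from yolk sac progenitors, divide extensively around birth and then acquire an adult homeostatic program that includes the fractalkine receptor CX3CR1 and the purinergic receptor P2RY12.

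The 4 knockouts held 23063160, 27440066, 23391221 and 26410970 counts, and the 3 controls 18187385, 21829753 and 17895515 counts. Every knockout library was thus deeper than every control library, and the part of depth in the results was not tested. On a principal component analysis the first component, with 42.51% of the variance, separated the 4 knockouts (20.1 to 38.5) from the 3 controls (-49.2 to -24.5). The second component, with the next largest share, set knockout 57 and control 56 apart from the other 5. These 2 libraries also held the highest summed level of immediate early genes, with 7243 CPM in knockout 57 and 7804 CPM in control 56. The other knockouts held 1231 to 1433 CPM and the other controls 1971 to 2695 CPM. From the counts of Xist and Y-linked genes, knockouts 48 and 57 and all 3 controls were male and knockouts 49 and 53 were female. Sex therefore differs in part with genotype, and counts from the male libraries alone are given beside several of the gene groups.

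Microglia markers were present in every library. The 10 marker genes summed to 9431 to 13060 CPM in knockouts and 21430 to 23120 CPM in controls, which do not overlap. The sorted cells also held RNA of other brain macrophages: the 13 border macrophage markers summed to 11120 to 21590 CPM in knockouts, and to 17910, 17630 and 4617 CPM in controls 54, 55 and 56. None of the 13 passed the test of single genes described with the targeted genes, and none was at 0 in either group. Of all genes tested, 6.81% rose and 3.56% fell. In the fit without control 56 and knockout 57, chosen after the data had been seen, 2 of the 13 fell and none rose. There 2.78% of all genes fell and 3.66% rose. Neutrophil markers summed to 1388 to 6112 CPM in knockouts and 1111 to 3886 CPM in controls. Of these 13, 0 passed, against 6.81% rises and 3.56% falls among all genes, but the log2 change of all 13 was positive, with a median of 0.44. Oligodendrocyte lineage markers summed to 103.9 to 129.8 CPM in knockouts and 143.0 to 239.2 CPM in controls, which do not overlap. Of 12 tested, 2 fell (16.67%, background 3.56%) and 0 rose. In these bulk libraries, fewer cells of a type and less RNA per cell cannot be told apart. The part of other cell types in the results that follow was not tested.

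**Figure D1:**
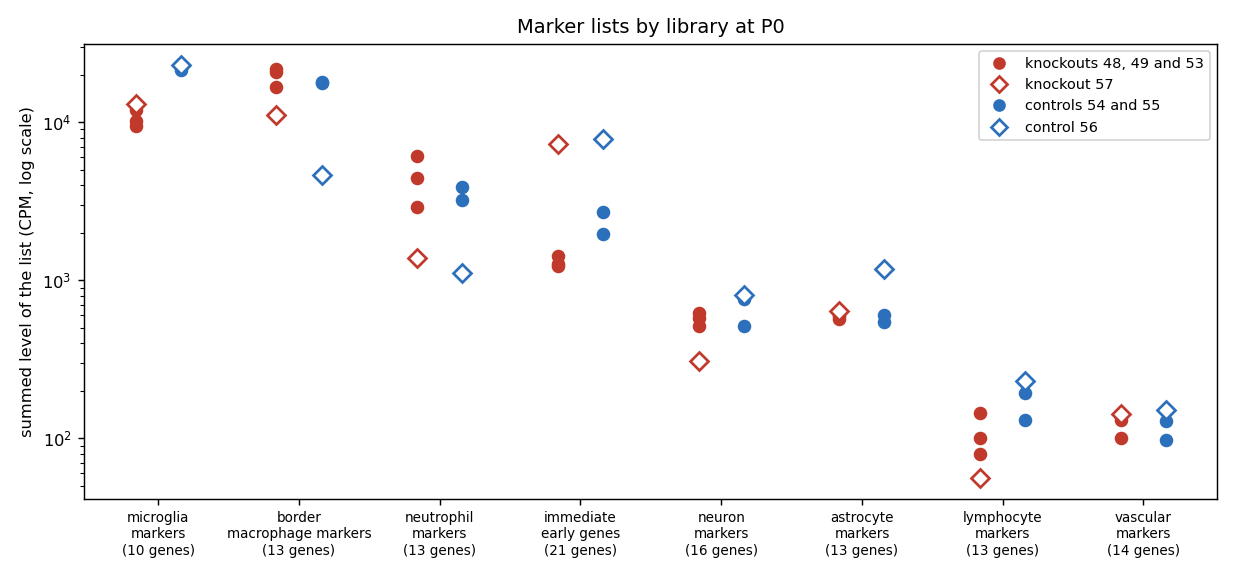
Summed level (CPM, log axis) of 8 gene lists in each of the 7 libraries at P0, with knockouts in red to the left of controls in blue, and knockout 57 and control 56 as open diamonds. Microglia markers were lower in all 4 knockouts than in all 3 controls, border macrophage markers overlapped between the groups with control 56 lowest at 4617 CPM, and immediate early genes were highest in knockout 57 and control 56.

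The targeted genes were read first. Hdac2 (GRCm38 chr10:36974544-37001889, plus strand) had 70.1, 73.9, 48.9 and 49.7 CPM in knockouts 48, 49, 53 and 57, against 144.9, 138.6 and 131.6 CPM in controls 54, 55 and 56. Every knockout lay below every control, and knockouts 53 and 57 were the lowest. The log2 change was -1.19 ± 0.16 (SE; edgeR's quasi-likelihood test with Benjamini-Hochberg adjustment over all genes tested, adjusted p = 0.00166). Hdac1 (chr4:129516104-129542713, minus strand) had 8.54, 8.13, 9.45 and 7.31 CPM in the 4 knockouts, against 14.9, 12 and 13.4 CPM in the 3 controls. Its groups did not overlap either, but the log2 change of -0.68 ± 0.23 did not pass the edgeR test (adjusted p = 0.0789). DESeq2 did call it, with a log2 change of -0.71 and an adjusted p of 0.018. Reads from exons that remain after recombination still count for the gene, and the sources used here do not name the deleted exons.

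Cx3cr1 (chr9:119901616-120069879, minus strand), the fractalkine receptor gene after which the driver is named, had 377.3, 431, 342.5 and 506 CPM in knockouts, against 2540, 2853 and 2858 CPM in controls. It had one of the smallest adjusted p-values of the comparison, with a log2 change of -2.71 ± 0.17 (edgeR adjusted p = 2.03e-05). At 2 weeks Cx3cr1 had 3073 to 3682 CPM in inducible knockouts, against 5248 to 6972 CPM in controls. The sources used here do not say whether the driver line lacks part of a Cx3cr1 copy. How much of the fall at P0 comes from such an insertion and how much from lower expression was not tested. Esr1 (chr10:4611593-5005614, plus strand), the estrogen receptor gene whose ligand-binding domain is related to that of CreERT2, had 40.6, 32.65, 31.3 and 42.6 CPM in knockouts. Controls held 5.72, 4.58 and 6.93 CPM, and the log2 change was 2.69 ± 0.23 (edgeR adjusted p = 8.16e-05). Whether reads of the CreERT2 transgene counted as Esr1 was not tested. At 2 weeks Esr1 had 147.1 to 167.3 CPM in inducible knockouts, against 4.74 to 9.40 CPM in controls. In the constitutive model at P0 it had 2.52 to 4.02 CPM in libraries labelled knockout, against 2.25 to 3.09 CPM in controls. Each of these 3 calls, of Hdac2, Cx3cr1 and Esr1, held without each library in turn and in the male libraries alone.

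**Figure D2:**
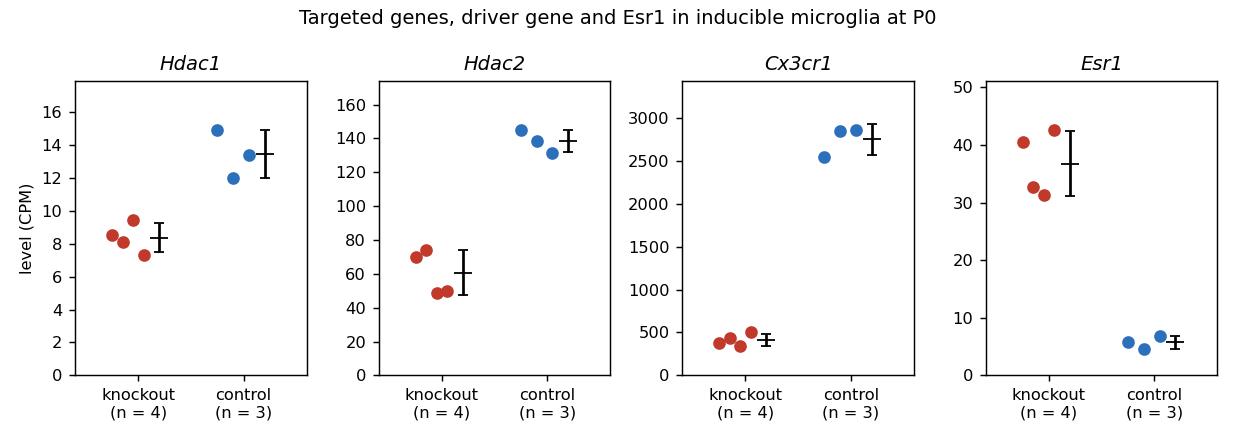
Level in CPM of Hdac1, Hdac2, Cx3cr1 and Esr1 in each library, with 4 knockouts (red, left) and 3 controls (blue, right) in each panel, and black marks with bars giving the mean and SD. In none of the 4 genes do the groups overlap: Hdac1, Hdac2 and Cx3cr1 were lower in every knockout and Esr1 was higher.

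Of 17573 genes tested, 1197 rose and 626 fell in knockouts at an edgeR adjusted p under 0.05, which is 6.81% and 3.56% of the genes tested. The median log2 change of all genes was -0.01, and the median size of the called changes was 0.87. The log2 change was above 1 for 394 of the called genes and below -1 for 319. Every called gene that could be tested kept its sign without each library in turn. The genes were chosen on the same libraries, so this is no independent check. The number of calls depended on single libraries. Rises numbered 603 without control 54, 557 without control 56 and 651 without knockout 49, and 387 of the 1197 were still called without control 55. Falls numbered 282 without control 55, 403 without control 56 and 348 without knockout 49. In the male libraries alone, 2 knockouts against 3 controls, 331 genes rose and 160 fell. Of the 116 called genes named by rule, 64 kept their call there. Of the called genes described here, those that lost the call were Apoe, Bax, Ccne2, Cdc6, Cebpa, Clcf1, Csf1r, Ctsd, Dcn, Fas, Fcrls, Gins2, Kat6b, Myadml2, Myh4, Myo18b, Pole2, Pxdn, Rbl2, Selplg, Spp1, Stbd1, Tgfbr1, Tnfrsf10b and Upk1b, and Eda2r was not tested there. Without control 56 and knockout 57, 653 rose and 496 fell.

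Many genes of the homeostatic microglia program fell, while others were not called. Of 30 members tested, 16 fell (background 3.56%) and 0 rose (background 6.81%), with a median log2 change of -0.78. Every knockout was below every control for 20 of the 30 (background 10.4%). Of the 16 falls, 11 held without each library in turn, and 9 fell in the male libraries alone (background 0.90%). In sum the list reached 28070 to 39390 CPM in knockouts and 44800 to 55680 CPM in controls.

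P2ry12 (chr3:59216272-59262871, minus strand), the ADP receptor that steers microglial processes, had 784, 603, 724 and 768 CPM in knockouts, against 2100.0, 1796 and 2056 CPM in controls. The groups lay far apart relative to their spread, and the log2 change was -1.45 ± 0.16 (edgeR adjusted p = 0.000416). Its counts can include reads of the overlapping gene Med12l. Slc2a5, a fructose transporter gene, had 33.6, 23.6, 20.7 and 43.35 CPM in knockouts, against 124, 103 and 111 CPM in controls (log2 change -1.89 ± 0.24, edgeR adjusted p = 0.00131). Crybb1, a crystallin gene that marks fetal and newborn microglia, had 66.3, 43.7, 61.4 and 138 CPM in knockouts, against 532, 433 and 809 CPM in controls. This was a log2 change of -2.90 ± 0.42 (edgeR adjusted p = 0.0069), with knockout 57 highest among knockouts and control 56 highest among controls. Entpd1, the ectonucleotidase CD39 that degrades extracellular ATP, fell with a log2 change of -1.10 ± 0.15, from the edgeR fit (adjusted p = 0.00138). Fcrls and Gpr34, a scavenger-type receptor and a lysophosphatidylserine receptor gene, fell with log2 changes of -1.07 ± 0.16 and -0.95 ± 0.16.

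Other members of the same program were not called. Tmem119, a microglial membrane protein gene, had 536, 378, 318 and 544 CPM in knockouts, against 415, 318 and 491 CPM in controls, and the groups overlapped. C1qa, a subunit of complement C1q, had 2309, 2138, 2826 and 3328 CPM in knockouts, against 2304, 2068 and 3015 CPM in controls. Their log2 changes were 0.13 ± 0.22 and 0.13 ± 0.21, with edgeR adjusted p-values of 0.74 and 0.731. Sall1, a transcription factor that maintains microglial identity, had 248, 151, 154 and 262 CPM in knockouts, against 328, 267 and 471 CPM in controls. The groups did not overlap, but the log2 change of -0.79 ± 0.24 did not pass the edgeR test (adjusted p = 0.0627).

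The transcription factors of macrophages and microglia were mostly not called. Of 20 tested, 2 fell (10.0%, background 3.56%) and 0 rose, with a median of -0.18. The falls were Bhlhe41, with 41.1, 48.8, 47.7 and 39.3 CPM in knockouts against 65.9, 71.1 and 81.3 CPM in controls, and Cebpa, with 20.6, 16.2, 16.8 and 29.9 CPM in knockouts against 32.0, 37.1 and 43.9 CPM in controls. Bhlhe41 held without each library (log2 change -0.70 ± 0.15, edgeR adjusted p = 0.0126). The call of Cebpa (-0.83 ± 0.23) was lost without any one of the libraries except knockout 57. Spi1, which encodes the macrophage master regulator PU.1, had 172, 143, 157 and 182 CPM in knockouts, against 184, 186 and 180.0 CPM in controls, a log2 change of -0.15 ± 0.14 (edgeR adjusted p = 0.517). Among 14 genes of the TGF-beta pathway, on which microglial identity depends, 1 fell (7.143%, background 3.56%). This was the receptor gene Tgfbr1 (-0.52 ± 0.15), whose call was lost without any one of the libraries except knockout 57.

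Receptors for survival and phagocytosis fell in part, and 1 rose. Of 21 tested, 9 fell (42.86%, background 3.56%) and 1 rose (4.762%, background 6.81%), with a median log2 change of -0.54. The number of falls was 4 without knockout 49, without control 54, without control 55 or in the male libraries alone. The backgrounds there were 2.03%, 2.51%, 1.56% and 0.90% in the same order. Itgam (chr7:128062640-128118491, plus strand), the alpha chain CD11b of complement receptor 3, had 33.7, 35.4, 29.3 and 34.6 CPM in knockouts, against 167, 152 and 153 CPM in controls. The knockouts clustered tightly and lay well below every control, with a log2 change of -2.23 ± 0.14 (edgeR adjusted p = 2.03e-05). Itgam shares exon bases with the predicted gene Gm49368. Reads of genes that overlap cannot be told apart without strand; this also touches Bhlhe41, Cebpa, Cd9, Bax, Diablo, Mcam, Ttn and Atp8a2. CD11b is commonly used to gate microglia by flow cytometry, and the sources used here say only that microglia were isolated by FACS.

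Trem2, a lipid-sensing receptor that sustains microglial survival, had 173, 140.1, 159 and 277 CPM in knockouts, against 580.1, 543 and 702 CPM in controls (log2 change -1.68 ± 0.23, edgeR adjusted p = 0.00181). Cd33, an inhibitory sialic acid receptor gene, had 249, 259, 194 and 316 CPM in knockouts, against 514, 528 and 637 CPM in controls (-1.12 ± 0.17). Knockouts stayed below controls for both genes. Csf1r, the receptor on whose signal microglia depend for survival, had 4482, 3964, 2889 and 4605 CPM in knockouts, against 7623, 6202 and 6907 CPM in controls. Its log2 change was -0.79 ± 0.19 (edgeR adjusted p = 0.0233), and the call was lost without knockout 49, control 54 or control 55. Axl, a receptor for apoptotic cells, went the other way. It had 289.7, 236, 192 and 285 CPM in knockouts, against 76.6, 72.5 and 110.4 CPM in controls, with every knockout above every control (1.55 ± 0.19, edgeR adjusted p = 0.000887).

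Of 18 integrin and adhesion genes, 5 fell (27.78%, background 3.56%) and 1 rose (5.556%, background 6.81%), with a median of 0.02, and the 5 falls held without each library. Itgax, the alpha chain CD11c, had 2.25, 1.97, 2.65 and 3.90 CPM in knockouts, against 17.98, 20.7 and 12.96 CPM in controls (log2 change -2.65 ± 0.32, edgeR adjusted p = 0.000683). Itgb3, the beta chain of the vitronectin receptor, had 16.8, 9.29, 7.48 and 12.5 CPM in knockouts, against 35.6, 37.5 and 32.0 CPM in controls (-1.60 ± 0.25). The other falls were Itgb2, the beta chain partner of CD11b and CD11c, with a log2 change of -0.77, and the tetraspanin gene Cd9, with -1.53. Itgal, the alpha chain of LFA-1, was the 1 rise. It had 103, 106, 80.4 and 128 CPM in knockouts, against 52.3, 52.9 and 67.2 CPM in controls (0.88 ± 0.18), and its call was lost without control 55. The integrin alpha chains thus moved in opposite directions within the same libraries.

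Genes of newborn proliferative and disease-associated microglia fell more often than they rose, with 10 falls (41.67%, background 3.56%) and 2 rises (8.333%, background 6.81%) among 24 tested and a median log2 change of -0.63. Falls numbered 6 without knockout 48, without knockout 49 or without control 55, and 3 in the male libraries alone. The backgrounds there were 2.72%, 2.03%, 1.56% and 0.90% in the same order. Spp1, the osteopontin gene of axon tract microglia, had 547, 629.8, 704 and 715 CPM in knockouts, against 2066, 2364 and 1022 CPM in controls (-1.47 ± 0.26, edgeR adjusted p = 0.0061). Control 56 was the lowest control and still lay above every knockout. Apoe, a lipoprotein gene, averaged 7036 ± 1795 CPM in knockouts (SD, n = 4) and 12010 ± 315 CPM in controls (SD, n = 3), with a log2 change of -0.75 ± 0.22 (edgeR adjusted p = 0.0474). That call was lost without any one of the libraries except knockout 57. Fabp5, a fatty acid binding protein gene, rose, with 121, 105, 134 and 89.7 CPM in knockouts against 47.3, 55.9 and 62.1 CPM in controls (1.04 ± 0.16, edgeR adjusted p = 0.00278). The second rise was Axl.

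Lysosomal genes gave 6 falls (23.08%, background 3.56%) and 1 rise (3.846%, background 6.81%) among 26 tested, with a median log2 change of -0.28. Falls numbered 3 without knockout 48, without knockout 49 or without control 54, and 1 in the male libraries alone. The backgrounds there were 2.72%, 2.03%, 2.51% and 0.90% in the same order. Ctsd, the cathepsin D gene, averaged 2014 ± 486 CPM in knockouts (SD, n = 4) and 4082 ± 900 CPM in controls (SD, n = 3), a log2 change of -0.99 ± 0.21 (edgeR adjusted p = 0.0136). In the male libraries alone its change was -0.79 and the call was lost (edgeR adjusted p = 0.129). Its counts can include reads of the overlapping predicted gene Gm49369. Lipa, the lysosomal acid lipase gene, had 154, 171, 183 and 156 CPM in knockouts, against 303, 282 and 271 CPM in controls (-0.77 ± 0.14). Glb1, beta-galactosidase, rose, with 275, 272, 215 and 235 CPM in knockouts against 128, 148 and 105 CPM in controls (0.98 ± 0.16, edgeR adjusted p = 0.00326). Glb1 shares exon bases with Tmppe.

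**Figure D3:**
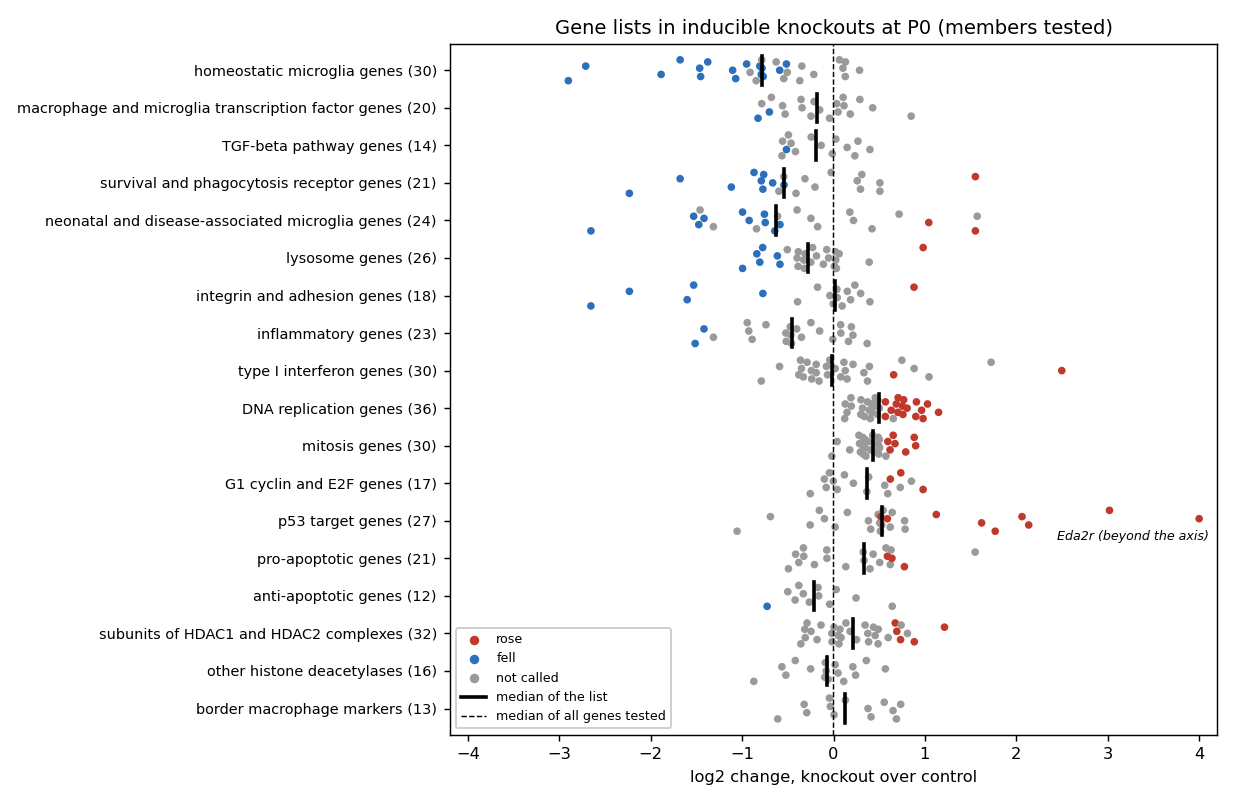
Log2 change of knockout over control at P0 (x axis) for the tested members of 18 gene lists (number tested in brackets), with rises in red, falls in blue, genes not called in grey, black bars for the median of each list and a dashed line for the median of all 17573 genes. The median of the homeostatic list was -0.78, that of DNA replication genes 0.49 and that of p53 targets 0.53; Eda2r lies beyond the axis.

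DNA replication genes rose. Of 36 tested, 16 rose (44.44%, background 6.81%) and 0 fell, and the log2 change of all 36 was positive, from 0.12 for Rfc2 to 1.15 for Gins2, with a median of 0.49. The list summed to 2885 to 3018 CPM in knockouts and 1926 to 2096 CPM in controls, which do not overlap. The count of rises was 7 without control 55 (background 2.20%) and 10 without control 56 (background 3.08%). It was 6 in the male libraries alone (background 1.86%) and 9 without control 56 and knockout 57 (background 3.66%). In the fit across all 50 libraries it was 7 (background 6.03%). The median stayed between 0.42 and 0.59 under all these settings, and 0 genes fell in any of them.

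To show what the regulatory sequence of these genes holds, windows from 250 bases before to 50 bases after the annotated start were searched on both strands for 4 spellings of the E2F motif: TTTCCCGC, TTTGGCGC, TTTCGCGC and TTTGCCGC. E2F factors drive the transcription of replication genes at the entry to S phase. Of the 36 replication genes, 28 had a window in the table used, and 15 of these 28 held a match (53.57%), against 704 of 27025 genes with a window overall (2.605%). Among 11 genes that rose and had a window, 6 held a match (54.55%), so the share was close to that of the whole list. A match describes letters and not binding. The windows of Mcm6, Mcm7, Cdc6 and Pole2 (RefSeq, GRCm38.p6), which hold matches and whose genes rose, are given 5′ to 3′ on the gene's strand with the matches in capitals. They lie at chr1:128359656-128359955 (minus strand), chr5:138171834-138172133 (minus strand), chr11:98907901-98908200 (plus strand) and chr12:69228141-69228440 (minus strand). In Mcm6 the first 2 of 3 matches overlap. Another window of Mcm7 held no match, and neither did those of Mcm2 and Rfc4, which also rose. Cx3cr1, which fell (window chr9:120068247-120068546, minus strand), has no match to these spellings or to the PU.1 motif GAGGAAGT and is shown beside them.
Mcm6: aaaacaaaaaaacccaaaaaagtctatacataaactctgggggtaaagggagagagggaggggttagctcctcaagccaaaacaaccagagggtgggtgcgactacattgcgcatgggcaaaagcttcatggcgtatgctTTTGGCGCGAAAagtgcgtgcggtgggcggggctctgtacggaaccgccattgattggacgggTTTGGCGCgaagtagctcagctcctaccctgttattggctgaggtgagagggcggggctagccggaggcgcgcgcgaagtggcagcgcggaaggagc
Mcm7: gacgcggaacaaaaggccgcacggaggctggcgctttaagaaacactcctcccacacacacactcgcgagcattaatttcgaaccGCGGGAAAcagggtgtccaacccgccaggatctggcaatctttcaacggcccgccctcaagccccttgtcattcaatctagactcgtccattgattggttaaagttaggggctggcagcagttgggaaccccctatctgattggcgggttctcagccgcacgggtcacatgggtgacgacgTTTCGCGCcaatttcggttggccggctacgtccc
Cdc6: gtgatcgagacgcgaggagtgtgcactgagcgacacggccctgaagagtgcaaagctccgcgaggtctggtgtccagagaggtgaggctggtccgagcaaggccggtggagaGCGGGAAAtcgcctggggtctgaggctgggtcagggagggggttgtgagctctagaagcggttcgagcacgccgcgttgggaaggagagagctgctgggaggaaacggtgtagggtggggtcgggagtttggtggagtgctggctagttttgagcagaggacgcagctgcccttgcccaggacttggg
Pole2: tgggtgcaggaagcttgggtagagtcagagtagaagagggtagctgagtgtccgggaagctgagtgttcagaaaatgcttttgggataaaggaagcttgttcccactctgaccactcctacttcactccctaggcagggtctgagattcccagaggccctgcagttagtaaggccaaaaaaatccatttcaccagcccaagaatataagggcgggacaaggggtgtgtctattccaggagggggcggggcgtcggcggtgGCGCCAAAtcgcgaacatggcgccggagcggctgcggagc
Cx3cr1: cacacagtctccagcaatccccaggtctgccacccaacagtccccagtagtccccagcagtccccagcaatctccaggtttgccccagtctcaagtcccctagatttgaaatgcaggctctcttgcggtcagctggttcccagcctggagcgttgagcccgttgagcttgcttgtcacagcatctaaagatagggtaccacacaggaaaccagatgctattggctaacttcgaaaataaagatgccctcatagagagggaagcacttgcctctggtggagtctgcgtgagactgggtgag
In the 22 homeostatic genes with a window, 3 held GAGGAAGT (13.64%), against 3.689% of all genes, and 1 of the 12 that fell held it (8.333%). An E2F match was held by 1 of the 22 (4.545%), against 2.605% of all genes. That gene, Trem2, is 1 of the 12 that fell (8.333%).

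Mcm6 (gene at chr1:128331590-128359664, minus strand), a subunit of the replicative helicase, had 305, 332, 336 and 314 CPM in knockouts, against 178, 176 and 167 CPM in controls. The 4 knockouts lay within a narrow range well above the controls (log2 change 0.90 ± 0.13, edgeR adjusted p = 0.0025). Mcm7, another helicase subunit, had 110.1, 98.1, 80.3 and 112 CPM in knockouts, against 67.4, 61.9 and 55.7 CPM in controls (0.70 ± 0.16, edgeR adjusted p = 0.0198). Cdc6, which loads the helicase at origins, had 50.2, 42.5, 26.8 and 29.0 CPM in knockouts, against 18.9, 20.0 and 17.6 CPM in controls (0.98 ± 0.22, edgeR adjusted p = 0.0165). Pole2, a subunit of DNA polymerase epsilon, had 22.6, 23, 28.1 and 16.7 CPM in knockouts, against 14.7, 13.7 and 10.4 CPM in controls (0.81 ± 0.23, edgeR adjusted p = 0.0481). None of these groups overlapped, and of these 4 calls only that of Mcm6 held without each library in turn. Gins2, a subunit of the helicase-activating GINS complex, had 43.8, 45.7, 62.0 and 50.6 CPM in knockouts, against 27.7, 20.4 and 20.6 CPM in controls (1.15 ± 0.21, edgeR adjusted p = 0.00695). It shares exon bases with Gse1.

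Some genes of mitosis and of the G1 to S transition rose. Of 30 mitosis genes, 7 rose (23.33%, background 6.81%) and 0 fell, with a median log2 change of 0.44. Rises numbered 4 without control 54 (background 3.29%) and 2 without control 55 (background 2.20%) or without control 56 (background 3.08%). A single member rose in the male libraries alone (background 1.86%) and without control 56 and knockout 57 (background 3.66%). The fit across all libraries also gave a single rise (background 6.03%). Ccnb2, a mitotic cyclin gene, had 133, 133, 137 and 150.0 CPM in knockouts, against 74.4, 76.2 and 73.99 CPM in controls (0.90 ± 0.13, edgeR adjusted p = 0.00256). Mki67, the proliferation antigen Ki-67, was not called, with 378, 350, 358 and 410 CPM in knockouts against 299, 311 and 321 CPM in controls (0.28 ± 0.13). Of 17 G1 cyclin and E2F genes, 3 rose (17.65%, background 6.81%), with a median of 0.36. Ccne1, cyclin E1, had 37.5, 28.2, 35.0 and 38.4 CPM in knockouts, against 15.7, 19.8 and 17.99 CPM in controls (0.98 ± 0.18, edgeR adjusted p = 0.0069). The calls of the other two, Ccne2 and Rbl2, were each lost without 5 or more of the 7 libraries left out in turn.

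Targets of the transcription factor p53, which responds to DNA damage and other stress, rose in part. Of 27 tested, 9 rose (33.33%, background 6.81%) and 0 fell, with a median log2 change of 0.53 that is the same with Eda2r at its lower bound. Rises numbered 6 without knockout 49, control 54 or control 56, and 5 in the male libraries alone. The backgrounds there were 3.79%, 3.29%, 3.08% and 1.86% in the same order. Without knockout 57, 1 member fell (background 3.89%). The list summed to 1612 to 1895 CPM in knockouts and 1191 to 1257 CPM in controls. Cdkn1a (chr17:29090976-29100727, plus strand), the kinase inhibitor p21 that halts the cell cycle, had 107, 112, 115.5 and 193 CPM in knockouts, against 44.4, 35.9 and 50.4 CPM in controls. Knockout 57 was the highest, and the log2 change was 1.62 ± 0.24 (edgeR adjusted p = 0.00287). Cdkn1a was also the 1 rise among 6 kinase inhibitor genes tested (16.67%, background 6.81%).

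Zmat3, an RNA-binding p53 target, had 45.1, 28.9, 52.2 and 38.2 CPM in knockouts, against 6.82, 9.80 and 11.96 CPM in controls (2.13 ± 0.25, edgeR adjusted p = 0.000573). Phlda3, an inhibitor of AKT signalling, had 9.76, 10.0, 11.5 and 10.2 CPM in knockouts, against 3.08, 2.93 and 3.19 CPM in controls (1.77 ± 0.26). Both separated fully by genotype. Ccng1, cyclin G1, had 283, 334, 268 and 250.2 CPM in knockouts, against 146, 142 and 103 CPM in controls (1.12 ± 0.17, edgeR adjusted p = 0.00287). Death receptor genes among the targets rose too, named here after their values had been seen. Fas had 11.4, 16.6, 19.3 and 17.5 CPM in knockouts, against 5.28, 4.21 and 2.18 CPM in controls (2.06 ± 0.35, edgeR adjusted p = 0.00497).

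Eda2r, a death domain receptor gene of the TNF receptor family, had 9, 42, 33 and 57 counts in knockouts and 0 counts in each of the 3 controls. With 3 counts over the controls in place of 0, its level was at least 27.1-fold higher in knockouts (edgeR adjusted p = 0.0069). Tnfrsf10b, the mouse TRAIL receptor gene, had 2.38, 1.57, 2.86 and 1.74 CPM in knockouts, against 0.11, 0.55 and 0.112 CPM in controls. The calls of Fas, Zmat3, Phlda3, Cdkn1a and Ccng1 held without each library, and those of Eda2r and Tnfrsf10b did not. Mdm2, a p53 target that also encodes its inhibitor, had 82.4, 86.2, 94.9 and 97.0 CPM in knockouts, against 102, 83.4 and 106 CPM in controls, and the groups overlapped (-0.10 ± 0.15).

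Of 21 pro-apoptotic genes 3 rose (14.29%, background 6.81%) and 0 fell, and of 12 anti-apoptotic genes 1 fell (8.333%, background 3.56%) and 0 rose. Rises among the pro-apoptotic genes numbered 0 without control 55 and 1 without knockout 49, control 54 or control 56. The backgrounds there were 2.20%, 3.79%, 3.29% and 3.08% in the same order. Bcl2l11, which encodes BIM, had 129, 116, 97.4 and 184 CPM in knockouts, against 82.4, 65.1 and 85.4 CPM in controls (0.78 ± 0.22, edgeR adjusted p = 0.0467). Bax, the pore-forming effector of mitochondrial apoptosis, had 97.4, 99.8, 128 and 101 CPM in knockouts, against 69.9, 72.4 and 72.2 CPM in controls (0.59 ± 0.15, edgeR adjusted p = 0.0294). Both separated by genotype, but both calls were lost without several libraries: without control 54, 55 or 56 and knockout 49 for both, and for Bcl2l11 also without knockout 48 or 57. Diablo, an antagonist of the inhibitors of apoptosis, rose by 0.64 ± 0.13 and lost its call without control 55. Cflar, the inhibitor of caspase 8 cFLIP, had 49.4, 65.2, 45.7 and 53.9 CPM in knockouts, against 90.7, 93.0 and 84.3 CPM in controls (-0.73 ± 0.16, edgeR adjusted p = 0.0146). Its call was lost without control 55.

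**Figure D4:**
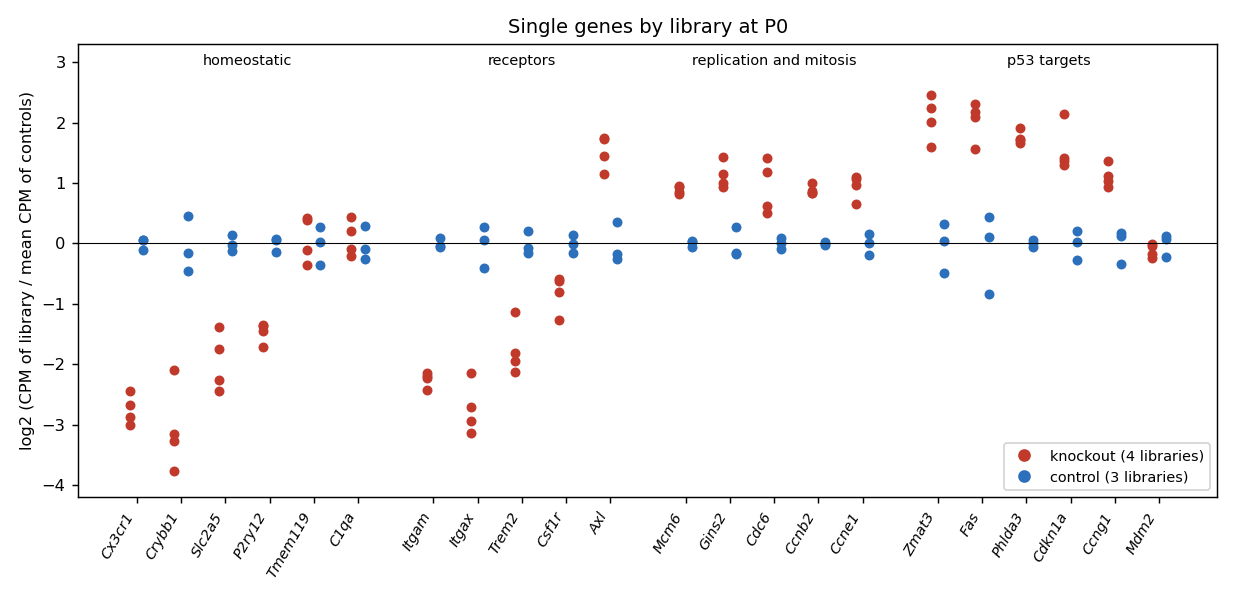
Level of single genes in each library on a log2 scale relative to the mean CPM of the 3 controls, with 4 knockouts (red) left of 3 controls (blue) for each gene. Tmem119, C1qa and Mdm2 overlap between the groups, the other homeostatic and receptor genes shown are lower in every knockout except Axl, and the replication, mitosis and remaining p53 target genes are higher in every knockout.

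None of the other 16 histone deacetylase genes tested was called (backgrounds 6.81% for rises and 3.56% for falls), with a median log2 change of -0.07. Of these, 1 rose without knockout 53, in the male libraries alone, with sex as a term and in the fit across all libraries. The backgrounds there were 5.38%, 1.86%, 2.74% and 6.03% in the same order. DESeq2 called 1 rise and 2 falls among the 16 (backgrounds 10.79% and 7.97%). Hdac3, the closest class I relative, had 124, 149, 125 and 130 CPM in knockouts, against 109, 121 and 116 CPM in controls (0.21 ± 0.13, edgeR adjusted p = 0.318). Of 32 subunits of the HDAC1 and HDAC2 complexes 5 rose (15.62%, background 6.81%) and 0 fell, with a median of 0.22. Rises numbered 3 without control 54 (background 3.29%) and 2 without control 56 (background 3.08%). Sin3a, the scaffold of the SIN3 complex, had 177, 129, 132 and 146 CPM in knockouts, against 59.3, 68.9 and 62.4 CPM in controls. Its log2 change of 1.21 ± 0.14 held without each library (edgeR adjusted p = 0.000614), as did that of the histone chaperone gene Rbbp7 (0.69 ± 0.13). Sin3a shares exon bases with 2700012I20Rik and Man2c1os, and Rbbp7 with Txlng.

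Among 12 histone acetyltransferases 2 rose (16.67%, background 6.81%) and 1 fell (8.333%, background 3.56%). Hat1, which acetylates newly made histone H4, had 153, 186, 218 and 165 CPM in knockouts, against 98.4, 98.4 and 81.1 CPM in controls (0.97 ± 0.17, edgeR adjusted p = 0.00556). The nuclear receptor coactivator gene Ncoa1 had 105, 108, 91.2 and 130.2 CPM in knockouts, against 50.5, 55.7 and 64.9 CPM in controls (0.95 ± 0.16). Kat6b fell (-0.87 ± 0.23), and its call was lost without 5 of the 7 libraries: knockouts 48 and 49 and the 3 controls.

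Of 30 type I interferon genes 2 rose and 0 fell, with a median log2 change of -0.01. The share that rose, 6.667%, was near the background of 6.81%. Rises numbered 4 without control 56 (background 3.08%), and 1 without knockout 49, 53 or 57 or without control 54 or 55. For these 1-gene counts the backgrounds were 3.79%, 5.38%, 5.64%, 3.29% and 2.20% in the same order. Ifi27, an interferon-inducible mitochondrial protein gene, had 220.4, 209, 297 and 242 CPM in knockouts, against 41.7, 52.5 and 36.1 CPM in controls (2.497 ± 0.19, edgeR adjusted p = 5.02e-05). It rose while Isg15, Ifit1 and Irf7 had log2 changes of -0.07, -0.19 and -0.04. Of 23 inflammatory genes 2 fell (8.696%, background 3.56%) and 0 rose, with a median of -0.46. Il1a, the interleukin 1 alpha gene, had 30.4, 25.1, 29.4 and 34.6 CPM in knockouts, against 64.3, 75.1 and 122 CPM in controls (-1.51 ± 0.21, edgeR adjusted p = 0.0016). Il1a shares exon bases with Gm14023. The summed immediate early genes, high in knockout 57 and control 56, overlapped between the groups. Of 20 immediate early genes tested 1 fell (5.0%, background 3.56%), with a median of -0.59. Without knockout 57, 8 fell with a median of -1.29 (background 3.89%). Without control 56 and knockout 57, 9 fell with a median of -1.01 (background 2.78%). Without any other single library 0 fell. Falls among inflammatory genes numbered 6 without knockout 57, 4 without knockout 53, and 1 without knockout 48 or without control 56. The backgrounds there were 3.89%, 3.05%, 2.72% and 2.23% in the same order.

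The largest rises by log2 change, chosen by size alone, are given next. Tpm2, beta-tropomyosin, had 151, 128, 154.5 and 115 CPM in knockouts, against 15.9, 18.4 and 9.89 CPM in controls (3.22 ± 0.23, edgeR adjusted p = 3.69e-05). Ttn, the giant sarcomere protein titin, had 58.1, 57.1, 38.4 and 49.9 CPM in knockouts, against 2.31, 4.63 and 8.72 CPM in controls (3.32 ± 0.36). The knockouts exceeded every control several-fold for both. Trim63, a ubiquitin ligase of muscle, had 7.15, 8.16, 7.22 and 17.1 CPM in knockouts, against 0.605, 1.15 and 0.726 CPM in controls (3.60 ± 0.46).

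Flt1 and Flt4, placed together here after their values had been seen, also rose. Flt1, VEGF receptor 1, had 51.9, 38.9, 35.3 and 72.7 CPM in knockouts, against 7.04, 12.6 and 5.03 CPM in controls (2.61 ± 0.36, edgeR adjusted p = 0.00229). Flt4, VEGF receptor 3, had 6.37, 12.8, 3.16 and 4.51 CPM in knockouts, against 0.22, 0.504 and 0.726 CPM in controls (3.80 ± 0.58). Mcam, the adhesion molecule CD146, had 28.0, 19.9, 14.4 and 37.2 CPM in knockouts, against 3.52, 2.29 and 2.40 CPM in controls (3.19 ± 0.37). Flt1 belongs to the list of vascular markers, of which 2 rose (14.29%, background 6.81%) and 2 fell (14.29%, background 3.56%) among 14 tested. The endothelial gene Pecam1 fell, with 13.1, 13.3, 10.4 and 12.4 CPM in knockouts against 24.9, 26.8 and 40.2 CPM in controls (-1.30 ± 0.20, edgeR adjusted p = 0.00305). The vascular list summed to 101 to 144 CPM in knockouts and 97.2 to 150 CPM in controls, which overlap.

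The other large rises were Mrgpra2a, a Mas-related receptor gene, with 8.46, 7.95, 6.33 and 4.66 CPM in knockouts against 0.11, 0.366 and 0.0559 CPM in controls, and Matn3, a cartilage matrix gene, with 6.98, 10.4, 11.4 and 6.47 CPM in knockouts against 1.04, 0.412 and 1.12 CPM in controls. Both held without each library, with log2 changes of 5.18 ± 0.55 and 3.37 ± 0.44, and that of Mrgpra2a was 6.25 without control 55. Fabp4, a fatty acid binding protein gene, had 4.16, 5.90, 5.99 and 21.7 CPM in knockouts, against 0.66, 0.412 and 0.335 CPM in controls. Its log2 change of 4.35 ± 0.71 became 3.49 without knockout 57. Myh4, Upk1b, Stbd1 and Thbs2 completed the 12, each with a call that was lost without at least 1 library. For Myh4 these were controls 54 and 55, for Thbs2 control 55, for Upk1b control 55 and knockouts 48, 49 and 53, and for Stbd1 controls 54 and 56 and the same 3 knockouts. Without 1 library their log2 changes also reached 5.77 (Myh4, control 56), 4.24 (Upk1b, control 54), 4.46 (Stbd1, control 55) and 4.25 (Thbs2, control 56).

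By difference in CPM rather than by ratio, the largest gain was in Atp1b3, a beta subunit of the sodium pump. It had 2283, 2653, 3276 and 2134 CPM in knockouts, against 694, 646 and 572 CPM in controls (2.03 ± 0.20, edgeR adjusted p = 0.000261). Nt5dc2, a gene of a nucleotidase-domain protein, had 431, 387, 344 and 450.0 CPM in knockouts, against 98.7, 100.2 and 89.5 CPM in controls (2.08 ± 0.15, edgeR adjusted p = 4.12e-05). Both held without each library, with every knockout above every control. Nt5dc2 shares exon bases with Stab1, a border macrophage marker whose own log2 change was -0.61.

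The largest falls by log2 change were chosen under the same limits, so here too the separation of the groups follows from the choice. Adgrg1 (chr8:94974751-95014217, plus strand), an adhesion receptor of microglia also known as GPR56, had 34.4, 29.1, 18.9 and 26.1 CPM in knockouts, against 188, 148 and 174 CPM in controls (-2.65 ± 0.19, edgeR adjusted p = 3.69e-05). Slamf8, a SLAM family receptor gene, had 1.91, 2.37, 2.22 and 0.984 CPM in knockouts, against 16.0, 8.98 and 13.2 CPM in controls (-2.77 ± 0.36). Knockouts lay far below controls for both. Siglecf, a sialic acid receptor gene, had 7.41, 4.70, 7.70 and 12.04 CPM in knockouts, against 54.2, 35.2 and 61.2 CPM in controls (-2.64 ± 0.31, edgeR adjusted p = 0.000887). Atp8a2, a phospholipid flippase gene, had 12.8, 10.9, 5.34 and 14.2 CPM in knockouts, against 58.8, 61.0 and 101 CPM in controls (-2.74 ± 0.30). Myadml2 (-3.48 ± 0.80), Myo18b (-2.77 ± 0.71) and Clcf1 (-2.28 ± 0.52) were also among them, and their calls were lost without several single libraries. For Myadml2 these were controls 54 and 55 and knockouts 48 and 53, for Myo18b all but knockouts 48 and 53, and for Clcf1 controls 54 and 56 and knockout 49. Without knockout 57 the change of Myadml2 was -4.55, and without knockout 48 that of Myo18b was -3.57.

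To describe the same genes in normal maturation, genes were listed that changed between P0 and 6 weeks in the constitutive controls, which share no library with the inducible ones. Of 16535 genes tested there, 63.9% were called, with 27.9% higher and 36.0% lower at 6 weeks. Of 407 genes that rise with age by a log2 change over 2 and were tested here, 68 fell in knockouts (16.71%, background 3.56%) and 15 rose (3.686%, background 6.81%), with a median log2 change of -0.58 against -0.01 for all genes tested in both. Falls numbered 45 without control 54, 37 without control 55 and between 47 and 76 without any other library. Rises numbered 9 without control 54 and between 10 and 14 otherwise. Of all genes tested, 1.56% to 3.89% fell and 2.20% to 5.64% rose without each library. Selplg, the P-selectin ligand gene, is one of them: it had 196, 159, 180.4 and 220.5 CPM in knockouts, against 291, 303 and 395 CPM in controls, and 4720 CPM on average in 6-week constitutive controls. Its log2 change here was -0.78 ± 0.16 (edgeR adjusted p = 0.0113). Lrrc3, a leucine-rich repeat gene that also rises with age, rose in knockouts, with 87.0, 72.3, 44.4 and 72.96 CPM in knockouts against 11.3, 10.8 and 29.3 CPM in controls (2.04 ± 0.36, edgeR adjusted p = 0.0087).

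Of 3242 genes that fall with age by the same measure, 172 rose (5.305%, background 6.81%) and 72 fell (2.221%, background 3.56%), and their median log2 change was -0.39. Both shares lie below the background. The counts depended on single controls: rises numbered 98 without control 54, 84 without control 55 and 110 without control 56. For these rises the backgrounds were 3.29%, 2.20% and 3.08% in the same order. Falls numbered 157 without control 54, 8 without control 55, 16 without control 56, 20 without knockout 49 and 31 without knockout 53. For these falls the backgrounds were 2.51%, 1.56%, 2.23%, 2.03% and 3.05%. Of the same list, the extracellular matrix genes Dcn and Pxdn fell, with log2 changes of -1.35 ± 0.30 and -1.40 ± 0.28. The call of Dcn was lost without control 55, control 56 or knockout 49, and that of Pxdn without control 55.

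The same deletion had been sampled 3 days after tamoxifen, at E16, in 3 knockouts and 4 controls. Hdac2 had 316.3, 71.41 and 68.56 CPM in E16 knockouts 1, 3 and 8, against 132.8, 165.4, 163.7 and 151.5 CPM in E16 controls 2, 4, 5 and 6. The library labelled E16 knockout 1 thus lay above every control and the other two below every control. It also held the lowest summed microglia markers of the E16 libraries, 6234 CPM, against 16140 and 16460 CPM in the other E16 knockouts and 17040 to 26640 CPM in E16 controls. Its neuron markers summed to 4178 CPM and its erythroid markers to 13370 CPM. In the other 6 E16 libraries these reached at most 1430 CPM and 1543 CPM. Values at E16 are therefore given with and without it, and the part of other cells in them was not tested.

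With all 7 E16 libraries no gene passed in the edgeR test of 17594 genes (smallest adjusted p = 0.0799; 2306 genes at an unadjusted p under 0.05). Without E16 knockout 1, a setting chosen after the data had been seen, 415 genes rose and 223 fell of 17973, 2.31% and 1.24% (3.55% in either direction). Of the rises called at P0 and tested there, 308 of 1185 rose at E16 in that setting (25.99%), and 164 of 621 falls fell (26.41%). The changes called at P0 mostly had the same sign at E16. With all E16 libraries this held for 1145 of 1183 rises (96.79%) and 516 of 620 falls (83.23%), and without E16 knockout 1 for 97.47% of rises and 98.87% of falls. The median change at E16 was 0.47 for the rises and -0.73 for the falls, against 0.11 for all genes, and 0.54 and -0.66 against -0.03 without E16 knockout 1.

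Hdac2 had a log2 change of -1.19 ± 0.16 at P0 and -0.20 ± 0.47 at E16, and -1.16 ± 0.11 at E16 without E16 knockout 1 (edgeR adjusted p = 0.00342). Itgam had -2.23 ± 0.14 at P0 and -2.20 ± 0.31 at E16, where it fell by 1.91 ± 0.18 without that library. Adgrg1 had -2.65 ± 0.19 at P0 and -1.47 ± 0.36 at E16, or -1.91 ± 0.28 without it. Mcm6 had 0.90 ± 0.13 at P0 and 0.25 ± 0.24 at E16, or 0.52 ± 0.09 without it. Without E16 knockout 1, all 4 of these genes passed at E16. The difference between the effects at P0 and E16 passed for none of 18916 genes in the edgeR test, with a smallest adjusted p of 0.77, while 983 had an unadjusted p under 0.05. DESeq2 called 2, and without E16 knockout 1 the edgeR count was also 0.

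At 2 weeks there were 4 knockouts and 4 controls. By Xist and Y-linked counts, 2-week knockouts 10, 13 and 16 were male, and knockout 6 and all 4 controls were female. Sex thus differed in part with genotype at both ages, and its part in the differences was not tested. The effect at 2 weeks differed from that at P0 for 785 of 17914 genes (4.38%) in the edgeR test of the difference. Of these, 307 were more positive (1.71%) and 478 more negative (2.67%) at P0. Of the positive ones tested in every fit, 268 of 301 were called at P0 and 15 at 2 weeks. Of the negative ones, 331 of 443 were called at P0 and 41 at 2 weeks. Itgam had a log2 change of -2.23 ± 0.14 at P0 and -0.29 ± 0.09 at 2 weeks, a difference of -2.01 ± 0.14 (edgeR adjusted p = 7.01e-07). Adgrg1 averaged 27.1 CPM in knockouts and 169.9 CPM in controls at P0, and 1058 CPM in knockouts and 1173 CPM in controls at 2 weeks, a difference in log2 change of -2.49 ± 0.22. Gpr84, a medium-chain fatty acid receptor gene, had 18.6, 17.8, 16.8 and 21.7 CPM in knockouts at P0, against 61.0, 51.4 and 55.4 CPM in controls, and its change was -1.57 ± 0.17 at P0 and 0.41 ± 0.10 at 2 weeks. Cd300c2, an activating receptor gene of the CD300 family, had 29.4, 27.9, 35.2 and 37.1 CPM in knockouts at P0, against 136, 147 and 165 CPM in controls. Its change was -2.19 ± 0.16 at P0 and -0.41 ± 0.09 at 2 weeks.

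Rises also differed from 2 weeks. Atp1b3 averaged 2586 CPM in knockouts and 637 CPM in controls at P0, and 489 CPM in knockouts and 488 CPM in controls at 2 weeks (difference 2.04 ± 0.19, edgeR adjusted p = 9.57e-06). Nt5dc2 had a difference of 1.83 ± 0.16. Hdac2 had a log2 change of -1.19 ± 0.16 at P0 and -1.42 ± 0.10 at 2 weeks, and the difference of 0.17 ± 0.18 did not pass (edgeR adjusted p = 0.635). Cdkn1a had 1.62 ± 0.24 at P0 and 0.97 ± 0.20 at 2 weeks, and its difference of 0.58 ± 0.34 did not pass either. Of the homeostatic genes, 12 of 30 had a more negative effect at P0 (background 2.67%) and 0 a more positive one (background 1.71%). The median change of the 30 was -0.78 at P0 and -0.10 at 2 weeks. Border macrophage markers summed to 920 to 1193 CPM in 2-week knockouts and 690 to 852 CPM in 2-week controls, far below their level at P0, and their part in these differences was not tested. Of the P0 calls tested at 2 weeks, 33 of 1086 rises (3.039%) and 40 of 564 falls (7.092%) were called in the same direction there. The 2-week comparison itself called 155 rises (1.11%) and 158 falls (1.13%) of 13921 genes, or 1.139% and 1.124% of those tested at both ages, and the shared genes were 21.43% of the 2-week rises and 26.32% of the 2-week falls. At 6 weeks 9 of 14217 genes were called (0.0633%), 7 rises (0.0492%) and 2 falls (0.0141%), and 3 of these rises and both falls were also called at P0.

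In the constitutive model at P0, with 3 libraries labelled knockout and 4 controls, the targeted genes did not separate the groups. Hdac2 had 190.5, 124.3 and 137.4 CPM in the libraries labelled constitutive knockout 68, 73 and 76, against 164.1, 129.1, 125.9 and 155.9 CPM in constitutive controls 69, 70, 71 and 74. Hdac1 had 35.72, 10.29 and 8.858 CPM in the libraries labelled knockout, against 11.38, 12.04, 13.56 and 12.55 CPM in controls. Library 68 lay above every control for both genes. The log2 changes were -0.29 ± 0.18 for Hdac2 and 0.21 ± 0.42 for Hdac1 (edgeR adjusted p = 0.211 and 0.71). Without library 68, a setting chosen after the data had been seen, they were -0.50 ± 0.17 and -0.74 ± 0.26 (edgeR adjusted p = 0.0433 and 0.0455). The directions that follow rest on these labels.

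There 3942 genes rose and 3726 fell of 18411 in the libraries labelled constitutive knockout, 21.4% and 20.2%. Without library 68, 3193 rose and 3202 fell of 18762 (34.1% in either direction). Many falls of the inducible model fell there too. Of 622 inducible falls tested in both, 413 fell in the constitutive model (66.4%, background 21.98%), and 400 of 624 fell without library 68 (64.1%, background 17.1%). Of 1176 inducible rises, 259 rose there (22.02%, background 21.83%), and 210 of 1181 rose without library 68 (17.78%, background 17.02%). The shared falls were 11.1% of the constitutive falls and the shared rises 7.008% of the constitutive rises. The share of falls lay between 50.76% without control 54 and 86.52% without control 55, and that of rises between 22.56% without knockout 48 and 37.44% without control 55, each left out of the inducible comparison. In the libraries labelled constitutive knockout, microglia markers summed to 1018 to 3902 CPM, against 21300 to 24660 CPM in their controls. Neutrophil markers summed to 7720 to 11910 CPM in the libraries labelled constitutive knockout, against 694 to 1656 CPM in their controls. Neuron markers summed to 3767 to 4603 CPM, against 1054 to 2288 CPM in the same controls. The part of these cells in the constitutive values was not tested.

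The edgeR test of the difference between the models passed for 5946 of 19236 genes (30.9%), 3254 more positive (16.9%) and 2692 more negative (14.0%) in the inducible model. Without library 68 it passed for 4833 genes. For the targeted genes the difference was -0.93 ± 0.25 in Hdac2 (edgeR adjusted p = 0.0109) and -0.92 ± 0.51 in Hdac1 (edgeR adjusted p = 0.183). Among homeostatic genes 24 of 30 were more positive in the inducible model. P2ry12 had a log2 change of -1.45 ± 0.16 in the inducible and -4.48 ± 0.60 in the constitutive model, and Csf1r had -0.79 ± 0.19 and -3.37 ± 0.41 in the same order. Adgrg1 went the other way, with -2.65 ± 0.19 in the inducible and -0.63 ± 0.12 in the constitutive model (difference -2.05 ± 0.21, edgeR adjusted p = 5.81e-05). Of the DNA replication genes, 21 of 36 were more positive in the inducible model. Mcm6 had 0.90 ± 0.13 in the inducible and -0.34 ± 0.14 in the constitutive model (difference 1.21 ± 0.18, edgeR adjusted p = 0.000284). Sin3a had 1.21 ± 0.14 in the inducible and -0.05 ± 0.13 in the constitutive model, and the difference of 1.23 ± 0.18 passed with an edgeR adjusted p of 0.000275. The models also differ in tamoxifen and in the time since deletion, which cannot be told apart from the model.

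**Figure D5:**
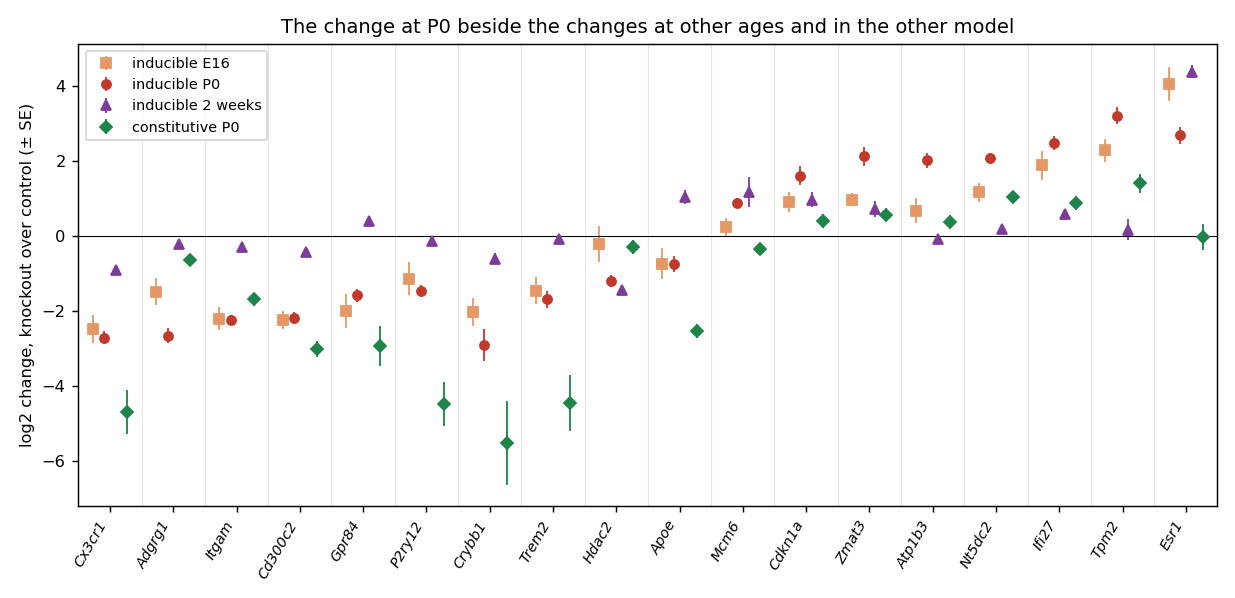
Log2 change of knockout over control (y axis, bars give SE) of 18 genes in the inducible model at E16, P0 and 2 weeks and in the constitutive model at P0, with all libraries as labelled; no gene was called at E16 in this setting. Itgam and Cd300c2 are low at E16 and P0 and closer to 0 at 2 weeks, Hdac2 is lowest at 2 weeks, and P2ry12, Crybb1 and Trem2 are lowest in the constitutive model.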

How the data were processed

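Microglia were isolated by FACS. Per the labels' protocols, cDNA was made from 1 ng total RNA with a SMARTer v4 kit in 11 PCR cycles, and 150 pg of it entered Nextera XT tagmentation. Per the submitters' processing notes, the tools were CASAVA 1.8.2, STAR 2.5.2b, featureCounts 1.5.1 and limma 3.28.21, and the build was GRCm38. The sources used here do not give the annotation release or strand setting of the counting. The deposited raw counts (48526 genes) were used for every test, and the CPM that the authors deposited equal those counts scaled to the library total. GENCODE M21 gave symbols and places for 48144 genes; the 382 others held 0.0224% of the counts. Windows around start sites are from RefSeq (GRCm38.p6).

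Each comparison was fitted on its own libraries with edgeR 4.0.16 in R 4.3.3: filterByExpr, TMM scaling, a robust quasi-likelihood fit and Benjamini-Hochberg adjustment over all genes tested, threshold 0.05. Log2 changes are knockout over control, with their SE. Differences of effects are interaction contrasts. The procedure was tested on simulated data. Alternatives were DESeq2 1.42.0, limma 3.58.1 (voom), RLE scaling, no filter, all libraries, a sex term and leaving out libraries; the male libraries alone and the fit without control 56 and knockout 57 were chosen after seeing the data. Libraries were grouped by their labels, 1 animal each by its number. Pairs within a group differed by more than counting error (19.3 to 93.5 chi-square units per gene).

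The members and lists were chosen with earlier results of these data known. Genes were named by rule: the targeted genes, Cx3cr1 and Esr1; the 12 highest and 12 lowest log2 changes among called genes with at least 5 CPM and no overlap of groups; the 6 highest gains and losses in CPM; up to 4 called members of a list; the 6 smallest adjusted p-values of each difference; and the called genes of the maturation lists with the largest change. Not all are printed, a few items are not reported here, and list members beyond these, with the genes shown as not called, were named after their values were seen.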

Additional observations from a re-analysis of the deposited data

Results flagged for a closer look

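Of 158 groups of 4 knockout libraries tested, 10 had 1 library far from the other 3, measured as the gap to the nearest library over the whole range of the group; chance flags about 5% of such groups. Knockout 57 was that library for Fabp4 (21.7 CPM, share of the range 0.896), Trim63 (17.1 CPM, 0.899), Upk1b (21.2 CPM, 0.894), Cdkn1a (193 CPM, 0.905) and Tmem206 (234 CPM, 0.856). It also stood apart, as the highest, in the summed levels of macrophage and microglia transcription factor genes (4166 CPM, 0.896), cyclin-dependent kinase inhibitors (339 CPM, 0.893) and immediate early genes (7243 CPM, 0.966). Knockout 53 stood apart for Itm2b (3576 CPM, 0.942), a membrane protein gene that fell, and for Bax (128 CPM, 0.88).

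The knockout effect at P0 differed from that at 2 weeks, by the edgeR test of the difference, for 785 genes. Those named are Adgrg1 (log2 difference -2.49), Gpr84 (-2.04), Itgam (-2.01), Cd300c2 (-1.83), Atp1b3 (2.04) and Nt5dc2 (1.83). It differed from that of the constitutive model at P0, whose libraries labelled knockout did not differ from their controls in Hdac1 or Hdac2 beyond the edgeR threshold, for 5946 genes, with Icos (3.60), Xlr (3.03), Pon3 (2.55), Tmem206 (1.99) and Gtf2h2 (1.93) named. In the inducible model the log2 changes were 0.75 for Icos, -0.40 for Xlr, 0.34 for Pon3, 0.61 for Tmem206 and -0.07 for Gtf2h2. In the constitutive model they were -2.88 for Icos, -3.47 for Xlr, -2.25 for Pon3, -1.40 for Tmem206 and -2.04 for Gtf2h2.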

How the results depend on the processing

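No paired analysis was possible because the knockouts (48, 49, 53 and 57) and controls (54, 55 and 56) share no animal number. Of the genes tested under each setting, 6.81% rose in the main fit, against 10.79% with DESeq2. The share was 1.86% in the male libraries alone, 2.74% with sex as a term and 3.66% without control 56 and knockout 57. Without each library in turn it was 2.20% (without control 55) to 5.64%. Of the genes tested, 3.56% fell, against 0.90% in the male libraries alone, 1.27% with sex as a term, 7.97% with DESeq2, 6.78% in the fit across all libraries and 1.56% to 3.89% without each library. The fits that leave out libraries hold fewer samples, while the fit with sex as a term held all 7 libraries. The cause of these changes in share was not tested. Without the filter on low counts, 1151 genes rose and 698 fell. The called genes that were tested kept their sign in every alternative. These fits used the counts on which the genes were chosen, so this is no independent check. Of the calls, 65.66% were rises, and 47.1% in the fit across all libraries, where the median log2 change of all genes was -0.13.

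Hdac1 passed with DESeq2 (-0.71) and in none of the other alternatives (-0.78 to -0.57 without each library). The difference from E16 gave 0 genes, 2 with DESeq2 and 0 to 1 without each library. The difference from 2 weeks gave 785 genes, 1576 with DESeq2 and 580 to 1048 without each library, and that from the constitutive model 5946 genes and 4563 to 6067. Of 116 named genes that passed, 116 kept their call with DESeq2, 113 with RLE scaling, 64 in the male libraries alone, 72 with sex as a term, and 73 to 102 without each library. Tspan32, not called at -0.02, was at 0.077 in the male libraries alone, 0.077 with sex as a term, and between -0.16 and 0.057 without each library. Gtf2h2, not called at -0.07, was at 0.047 in the male libraries alone and 0.051 with sex as a term. With a maturation threshold of 1 in place of 2, 262 of 1931 genes that rise with age fell and 37 rose. Calls were rarer at low levels: 0.877% of 2508 genes under 1 CPM rose, against 11.02% of 2413 genes at 100 CPM or more. The part of sequencing depth in this was not tested.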
